A study of Rattus norvegicus with 6 samples.

Results

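Described here are 28 rat genes of cholesterol synthesis, its control by the transcription factor SREBP2 and sterol transport inside the cell, out of 17771 genes in the deposited count table. The members were chosen by gene symbol, with the differences between resveratrol and saline corneas in these same libraries already known. The differences below are therefore a description and no test of the pathway. Of the 28 genes, 28 passed the filter on low counts. RNA was sequenced from corneas of Wistar rats that carried a corneal allograft from SD donors. The 3 control libraries came from recipients injected intraperitoneally with saline, and the 3 resveratrol libraries from recipients injected with resveratrol, a plant polyphenol, every day until day 7. Every library is thus from a grafted cornea, and the dose, age and sex of the animals are not given in the labels. The labels do not say whether libraries came from separate animals, so any p-value measures only the spread between these libraries, which may be technical.

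Cells build cholesterol from acetyl-CoA through mevalonate, isoprenoid units, squalene and lanosterol. When the endoplasmic reticulum holds enough sterol, the INSIG proteins keep the SCAP-SREBP2 complex there. When sterol falls, SCAP carries SREBP2 to the Golgi, where the proteases encoded by Mbtps1 and Mbtps2 release its transcription factor part, and genes of the pathway are switched on. SREBP2 acts at a short sterol regulatory element, usually beside a CCAAT box that binds the factor NF-Y. In the cornea, an avascular tissue covered by a renewing epithelium, sterols are needed for membranes of dividing cells.

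The proximal promoters are shown first, as a description of letters alone. Any link between these letters and the differences between the groups was not tested. RefSeq windows of the rat build GRCr8 (250 bases before to 50 bases after a gene's start) were matched by symbol for 24 of the 28 genes. Pmvk, Fdft1, Sqle and Stard4 were not matched. The stretches below end before the annotated start and lie outside annotated genes, except that of Srebf2, which is a 30-base stretch around the match alone. Capitals mark CCAAT on either strand (read as ATTGG on the other) and the sterol element letters TCACNCNA on either strand. Mvk and Nsdhl are shown for the most CCAAT boxes, Fdps and Msmo1 for both kinds of match, Tm7sf2 for its large difference between groups and Cyp51 for having neither.
Mvk, chr12:47819504-47819703, minus strand: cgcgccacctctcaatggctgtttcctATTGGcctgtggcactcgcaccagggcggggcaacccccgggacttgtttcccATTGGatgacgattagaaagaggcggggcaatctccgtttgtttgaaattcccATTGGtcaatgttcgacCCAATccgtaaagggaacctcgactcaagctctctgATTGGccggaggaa
Fdps, chr2:176804817-176805016, minus strand: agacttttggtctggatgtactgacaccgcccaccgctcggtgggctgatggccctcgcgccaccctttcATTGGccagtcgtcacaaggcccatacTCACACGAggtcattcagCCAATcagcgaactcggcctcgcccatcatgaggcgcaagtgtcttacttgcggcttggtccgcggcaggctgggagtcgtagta
Cyp51, chr4:30991493-30991692, plus strand: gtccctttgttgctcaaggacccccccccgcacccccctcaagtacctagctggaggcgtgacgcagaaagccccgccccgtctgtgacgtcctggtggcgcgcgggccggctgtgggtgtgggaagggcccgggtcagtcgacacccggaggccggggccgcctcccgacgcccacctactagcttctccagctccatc
Tm7sf2, chr1:212789573-212789720, minus strand: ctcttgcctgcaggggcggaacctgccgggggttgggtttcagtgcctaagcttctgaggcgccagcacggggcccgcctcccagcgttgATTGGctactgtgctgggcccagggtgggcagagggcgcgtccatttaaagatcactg
Msmo1, chr16:29746913-29747112, plus strand: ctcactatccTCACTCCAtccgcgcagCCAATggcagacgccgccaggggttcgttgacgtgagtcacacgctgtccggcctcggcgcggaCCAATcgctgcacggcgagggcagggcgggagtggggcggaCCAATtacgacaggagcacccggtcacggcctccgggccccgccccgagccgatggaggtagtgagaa
Nsdhl, chrX:155817187-155817300, plus strand: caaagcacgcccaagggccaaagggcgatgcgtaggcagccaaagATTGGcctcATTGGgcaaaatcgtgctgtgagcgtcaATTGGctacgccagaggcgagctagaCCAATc
Srebf2, chr7:115543141-115543170, plus strand: tgacgcgccaTCACCCCAtgagccgcttcg

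CCAAT was found in the windows of 13 of the 16 enzymes that had one (81.2%), against 37.6% of the 10881 windows that matched a gene tested here and 37.5% of all 33469 windows. The enzymes without it were Acat2, Cyp51 and Dhcr7. At least 2 copies stood in 10 of the 16 enzyme windows, against 13.4% of the windows of tested genes, and Mvk and Nsdhl held 5 each. Of the other 8 members with a window, 4 held CCAAT (Insig1, Insig2, Srebf2 and Npc2). The GC box GGGCGG, bound by Sp1, was in 13 of 16 enzyme windows and in 61.3% of the windows of tested genes. The strict sterol element letters TCACCCCAC and TCACNCCAC, searched on both strands, were in 0 of the 24 windows, and in 0.423% and 1.11% of the windows of tested genes.

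Looser letters were tried after the windows had been seen. TCACNCCA, whose matches are also matches of TCACNCNA, was in the windows of Msmo1 and Srebf2 (2 of 24), against 3.44% of those of tested genes. TCACNCNA was in 5 of 24, against 9.11%, with Fdps, Hmgcs1 and Ebp added. The match in Fdps began 103 bases before the start, between an inverted CCAAT at 130 bases and a direct CCAAT at 85 bases. In Srebf2 it began 156 bases before the start, with an inverted CCAAT at 129 bases. No match of these letters overlapped a CCAAT in either gene. A match describes letters and is not a binding site, and the absence of a match concerns this window only.

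All 19 enzymes had a higher mean in resveratrol than in control, as had 5 of the 6 genes of SREBP2 control and 1 of the 3 of sterol transport. Values are CPM (counts relative to library size, with TMM scaling), and fold changes are fitted by edgeR on the log2 scale, resveratrol minus control, with a moderated standard error. The median log2 fold change was 0.39 over the 19 enzymes, a median difference of 30.6%, against -0.01 over the 14213 genes tested. Of those genes 48.8% had a higher mean in resveratrol. The enzymes summed to 1755 ± 231 CPM in control libraries, against 2346 ± 199 CPM under resveratrol (SD, n = 3), and the 2 groups did not overlap, at 1621 to 2021 CPM and 2157 to 2553 CPM. In 13 of the 19 enzymes every resveratrol library lay above every control library, as did 12.2% of all genes tested. This share stands beside the enzymes' count without any inference from it, since the genes were chosen on this contrast. For 7 of the 19 enzymes the lowest resveratrol and the highest control library were within 5% of each other, in either order.

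No member passed edgeR's quasi-likelihood test at an adjusted p of 0.05, and neither did any other gene (0% of 14213; its lowest adjusted p was 0.1002). Before adjustment, 1115 genes had an edgeR p under 0.05 with a higher mean and 1667 with a lower mean. Among them were 14 of the 19 enzymes and Stard4 with a higher mean, beside 7.84% of all genes tested, and Npc2 with a lower mean, beside 11.7%. DESeq2, run as an alternative, called 8 enzymes as higher, against 2.23% of the genes to which it gave an adjusted p, and limma voom called 0 genes. The 8 were Acat2, Fdps, Fdft1, Sqle, Cyp51, Tm7sf2, Ebp and Sc5d.

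**Figure D1:**
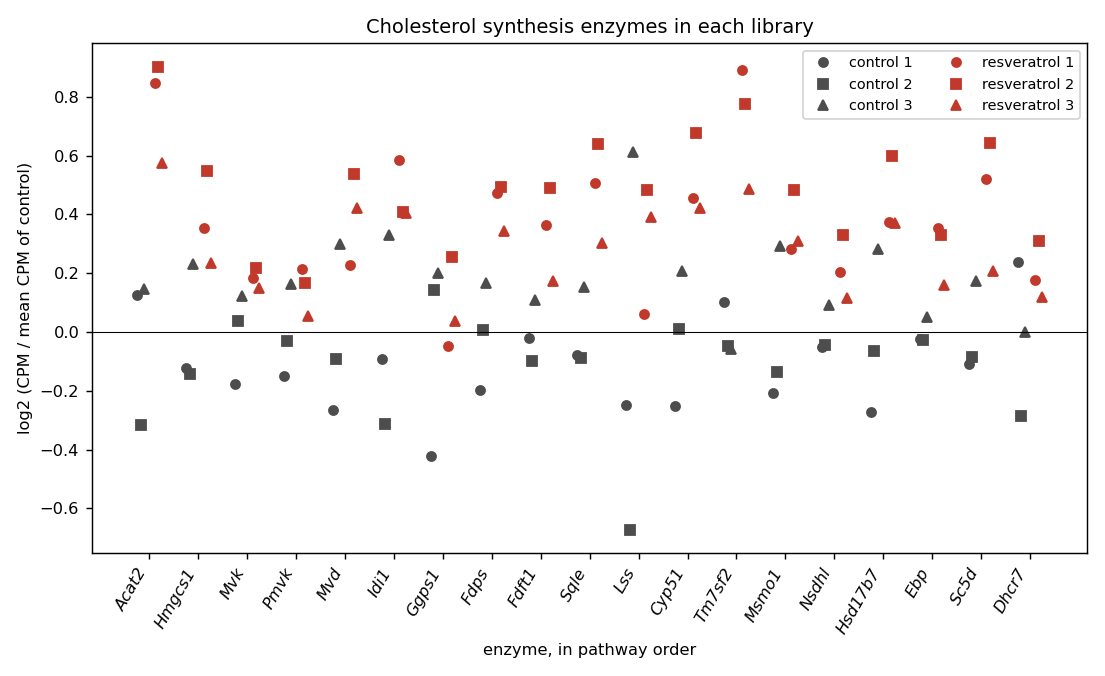
Log2 ratio of CPM to the mean CPM of control for the 19 enzymes in pathway order, 1 point per library (grey, control; red, resveratrol; circle, square and triangle, replicates 1, 2 and 3). Resveratrol 2 is the highest library for 14 enzymes, control 1 or control 2 is the lowest for 18, and control 3 is the highest control for 17.

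The mevalonate steps opened the pathway with 5 of 5 genes at a higher mean. Acat2, the cytosolic thiolase that joins acetyl-CoA units, had the largest difference of the 28 genes. Its level was 82.1, 60.5 and 83.3 CPM for control 1, 2 and 3, against 136, 141 and 112 CPM for resveratrol 1, 2 and 3 (log2 fold change 0.78 ± 0.15, a difference of 72.0%). The groups were well apart, and the lowest resveratrol library was the third. Hmgcs1, HMG-CoA synthase, was at 308 ± 46.7 CPM in control libraries, against 403 ± 44.7 CPM under resveratrol. Its groups touched without overlap, since control 3 was at 362 CPM and resveratrol 3 at 363 CPM. Mvk, mevalonate kinase, differed by 0.18 ± 0.095 and also did not overlap. Pmvk, phosphomevalonate kinase, had 21.3 ± 2.38 CPM in control and 23.6 ± 1.33 CPM under resveratrol. Mvd, the decarboxylase that ends this stage, had 39.7 ± 8.17 against 52.5 ± 5.63 CPM, and the groups overlapped for both genes.

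Among the isoprenoid steps, Idi1 and Fdps had larger fold changes than Ggps1, and no test compared them. Idi1, which isomerises isopentenyl pyrophosphate, was at 63.1 ± 14.6 CPM in control libraries, against 87.3 ± 6.36 CPM under resveratrol (0.47 ± 0.16). Fdps, which makes farnesyl pyrophosphate, was at 185, 213 and 238 CPM in control libraries, against 294, 299 and 269 CPM under resveratrol (0.44 ± 0.10). The lowest resveratrol library of Fdps was above the highest control library. Ggps1 leads off to geranylgeranyl pyrophosphate, used to prenylate proteins. It was at 7.85, 11.6 and 12.1 CPM in control libraries, against 10.2, 12.5 and 10.8 CPM under resveratrol (0.09 ± 0.19). Its groups overlapped, and its sign turned to -0.08 without control 1 and to -0.02 over the Oct libraries, and it was also negative with resveratrol 2 left out.

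From squalene to cholesterol, 11 of 11 enzymes had a higher mean, beside 48.8% of all genes tested. In 8 of 11 every resveratrol library lay above every control library, beside 12.2% of all genes tested. Fdft1, squalene synthase, was at 148 ± 10.8 CPM in control libraries, against 189 ± 20.6 CPM under resveratrol. Sqle, the oxygen-dependent squalene epoxidase, was at 105 ± 10.1 and 147 ± 17.0 CPM (0.49 ± 0.11). Lss, which closes the ring to lanosterol, was the most variable enzyme in control, named here after its values were seen: its 3 control libraries were at 69.5, 51.7 and 126 CPM and its resveratrol libraries at 86.0, 115 and 108 CPM. Control 3 was thus the highest of all 6 libraries for Lss, the sole enzyme with a control library on top.

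Cyp51, the lanosterol demethylase, was at 183, 219 and 252 CPM in control libraries, against 299, 349 and 292 CPM under resveratrol (0.52 ± 0.13). All 3 of its resveratrol libraries were above control 3. Tm7sf2, the sterol reductase that follows Cyp51, had the second largest difference and low spread in control, at 22.3, 20.1 and 20.0 CPM. Its resveratrol libraries were at 38.6, 35.6 and 29.1 CPM (0.73 ± 0.12, a difference of 65.5%). Tm7sf2 was also an enzyme whose control 3 was not raised above the other controls, as the plot of enzymes by library shows.

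Msmo1, Nsdhl and Hsd17b7 act together to remove methyl groups of the sterol ring other than the one that Cyp51 removes. Msmo1, at 90.3 ± 17.6 CPM against 116 ± 8.84 CPM under resveratrol, had overlapping groups, while Nsdhl (0.22 ± 0.085) and Hsd17b7 (0.45 ± 0.15) did not. Ebp, the sterol isomerase, had the smallest spread relative to its mean among the enzymes in control, at 51.3 ± 1.61 CPM, and was at 62.4 ± 4.46 CPM in resveratrol. Sc5d, the desaturase after it, was at 115 ± 12.8 CPM in control and at 159 ± 24.0 CPM under resveratrol (0.47 ± 0.13). Dhcr7, a reductase of the last step, was at 68.2 ± 12.2 CPM in control and at 78.5 ± 5.40 CPM under resveratrol, with overlap and with control 1 as its highest control library.

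Of the genes of SREBP2 control, 5 of 6 had a higher mean, beside 48.8% of all genes tested, with a median log2 fold change of 0.06. Groups without overlap were found for 0 of 6, beside 12.2% of all genes tested with resveratrol above control and 14.4% with it below. Srebf2, which encodes SREBP2 and can be a target of its own product, was at 187, 206 and 199.9 CPM in control libraries, against 261, 213 and 201 CPM under resveratrol (0.19 ± 0.11). Resveratrol 1 stood well above the other libraries for Srebf2, and resveratrol 3 lay within the control values. The difference of Srebf2 was 0.08 with resveratrol 1 left out and 0.03 over the Oct libraries. Insig1 is an SREBP2 target as well as the retention factor of the pathway. It was at 133, 133 and 157 CPM in control libraries, against 173, 138 and 124 CPM under resveratrol (0.04 ± 0.13). Its lowest library was resveratrol 3 and its highest resveratrol 1, so the sign turned to -0.10 without resveratrol 1.

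Insig2, the second retention factor, was at 16.4, 14.6 and 15.3 CPM in control libraries, against 15.1, 13.7 and 14.4 CPM under resveratrol (-0.10 ± 0.10). The highest resveratrol library of Insig2 lay within the control values, and the other 2 lay below them. Scap, the escort protein, was at 143 ± 3.48 and 143 ± 10.8 CPM. The protease genes Mbtps1 (0.08 ± 0.066) and Mbtps2 (0.11 ± 0.13) overlapped between the groups too. No test compared this set with the enzymes, since both were chosen on the same contrast.

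**Figure D2:**
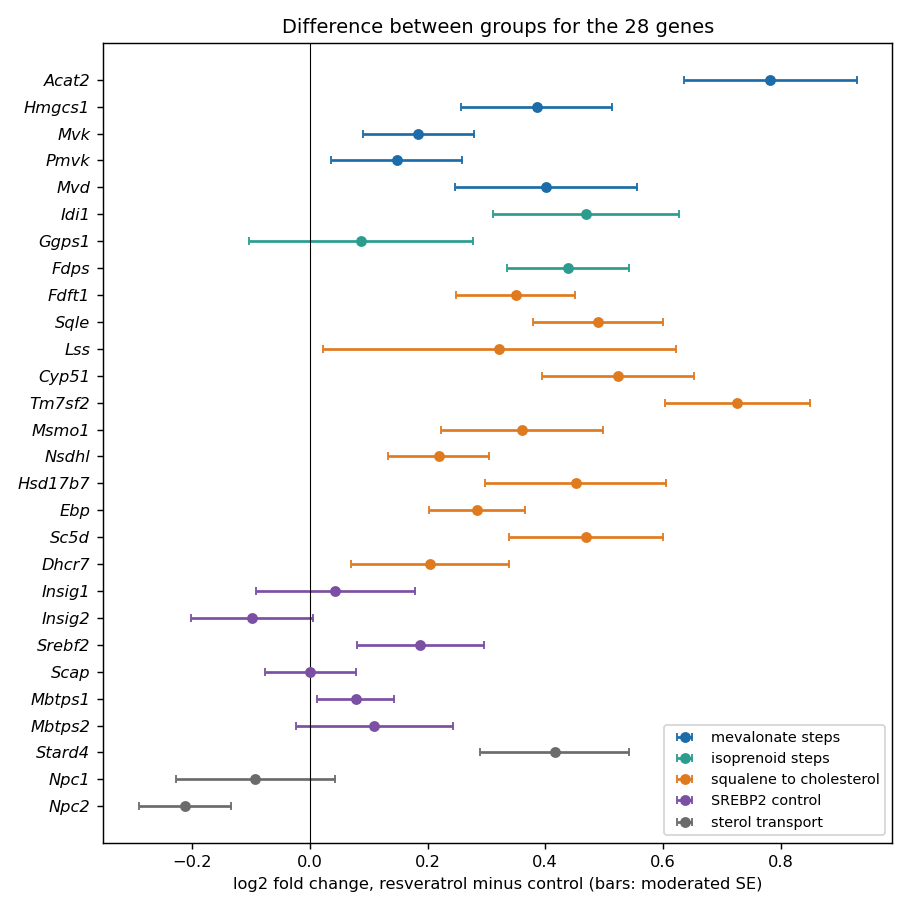
Fitted log2 fold change (x axis, resveratrol minus control) of the 28 genes, coloured by role, with bars for the moderated standard error. The 19 enzymes lie between 0.09 (Ggps1) and 0.78 (Acat2), the 6 SREBP2 control genes between -0.10 and 0.19, and Npc2 is lowest at -0.21.

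Of the sterol transport genes, 1 of 3 had a higher mean. Stard4, a cytosolic sterol carrier, was at 15.5, 12.7 and 14.5 CPM in control libraries, against 17.2, 21.1 and 18.7 CPM under resveratrol (0.42 ± 0.13), without overlap. Npc1, the membrane protein that exports cholesterol from lysosomes, was at 51.5, 47.1 and 45.4 CPM in control libraries, against 51.9, 46.6 and 36.6 CPM under resveratrol (-0.09 ± 0.13). Resveratrol 3 alone was low for Npc1, and the value was 0.05 without it. Npc2, the soluble lysosomal partner of Npc1, was at 160.0, 167 and 153 CPM in control libraries, against 128, 141 and 146 CPM under resveratrol (-0.21 ± 0.078). All resveratrol libraries of Npc2 lay below all control libraries, as did 14.4% of the genes tested.

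Levels between genes were compared per length, in the deposited FPKM (fragments relative to gene length and library size). Fdps was the most abundant of the 28 genes, at 144, 167 and 186 FPKM in control libraries, against 227, 237 and 217 FPKM under resveratrol. Npc2 came second in control, at 127 ± 5.59 FPKM, followed by Hmgcs1 at 76.1 ± 11.6 and Cyp51 at 71.7 ± 11.4 FPKM, whose ranges overlapped. Msmo1 (52.5 ± 10.3), Fdft1 (46.7 ± 3.44), Sqle (46.6 ± 4.58) and Ebp (45.1 ± 1.48 FPKM) followed, with overlapping ranges. Insig1 (37.4 ± 3.88), Acat2 (37.2 ± 6.34), Srebf2 (35.2 ± 1.79) and Scap (33.3 ± 0.789 FPKM) came next, each overlapping its neighbour in this order. Nsdhl (31.1 ± 1.82), Dhcr7 (25.7 ± 4.56), Mvk (24.9 ± 2.65), Mvd (23.6 ± 4.90), Sc5d (22.9 ± 2.60), Idi1 (21.9 ± 5.11) and Mbtps1 (21.6 ± 0.544 FPKM) made up the middle of the order. Below them were Pmvk (17.8 ± 2.01), Lss (17.5 ± 8.29), Tm7sf2 (14.1 ± 0.860), Npc1 (9.25 ± 0.595), Insig2 (4.82 ± 0.275) and Hsd17b7 (4.25 ± 0.850 FPKM). At the low end stood Mbtps2 (3.97 ± 0.297), Stard4 (2.65 ± 0.262) and Ggps1. Ggps1 was at 0.711, 1.05 and 1.10 FPKM in control libraries, against 0.911, 1.16 and 1.01 FPKM under resveratrol. In resveratrol Acat2 was at 64.7 ± 6.87 FPKM, near Sqle at 66.1 ± 7.22 and Msmo1 at 68.2 ± 5.75 FPKM.

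**Figure D3:**
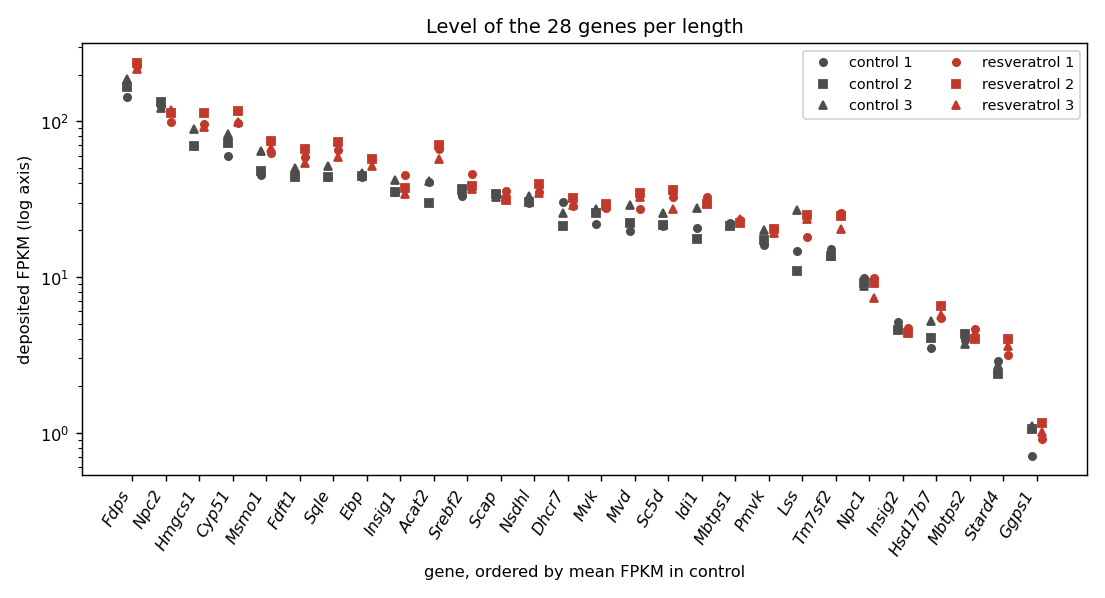
Deposited FPKM (log axis) of the 28 genes in each library, ordered by the control mean (grey, control; red, resveratrol; marker shape, replicate). Levels run from 166 FPKM (Fdps) to 0.953 FPKM (Ggps1) in control means, and for most enzymes the red points lie above the grey.

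The libraries within each group also differed in the enzymes as a set. The median deviation of the 19 enzymes from their mean log2 CPM was -0.31, -0.28 and -0.02 in control libraries 1, 2 and 3 and 0.17, 0.32 and 0.06 in resveratrol libraries 1, 2 and 3. Control 3 and resveratrol 3 were thus the nearest libraries of the 2 groups. Without control 3 the median log2 fold change of the enzymes was 0.53, and 17 of 19 did not overlap, beside 17.7% of all genes in the same libraries. Library descriptions carry the ending Sep (replicate 1 of each group) or Oct (replicates 2 and 3), whose meaning the labels do not give. Within the Sep pair, 1 library per group, 18 of 19 enzymes were higher in resveratrol (median log2 difference 0.49, Dhcr7 the exception). Within the Oct libraries 18 of 19 were higher (median 0.36, Ggps1 the exception). Of the SREBP2 control genes, 5 of 6 were higher in the Sep pair and 3 of 6 in the Oct libraries.

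Summed markers of immune and vessel cells were lower in the resveratrol libraries, where the enzymes were higher. All 8 macrophage markers were tested, and they summed to 295 to 417 CPM in control and 197 to 284 CPM in resveratrol, with 6 of 8 at a lower mean. Their median deviation was 0.65, 0.38 and 0.07 in control libraries, against -0.70, -0.38 and -0.02 under resveratrol, so control 3 and resveratrol 3 were again the nearest pair. The 5 tested of 6 T cell markers summed to 5.95 to 14.8 CPM and 3.90 to 4.11 CPM, the 4 dendritic cell markers to 30.3 to 51.2 and 19.5 to 22.4 CPM, and the 5 vessel markers to 316 to 461 and 195 to 262 CPM. In bulk tissue fewer cells of a type and less RNA per cell cannot be told apart. The part of these cell types in the enzyme values was not tested.

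Epithelial, stromal and endothelial markers were also summed. The 6 corneal epithelial markers, with Krt12 and Krt5 the most abundant, summed to 83031 to 90769 CPM in control and 81939 to 94849 CPM in resveratrol, with a median log2 fold change of 0.03. The 5 keratocyte markers summed to 5185 to 5882 CPM in control and to 3964 to 5748 CPM under resveratrol. All 5 had a lower mean (median -0.19). Only Cd34 (-0.68 ± 0.28) did not overlap between the groups, as did 14.4% of the genes tested with resveratrol below control. The log2 difference of Cd34 was -1.70 in the Sep pair and -0.20 in the Oct libraries. Of the 4 corneal endothelial markers 2 had a lower mean without overlap, as did 14.4% of the genes tested. They were Col8a1 (-0.72 ± 0.17, called by DESeq2) and Col8a2 (-0.33 ± 0.16). The other 2 had a higher mean with overlap.

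Lipid-rich cells of oil glands and fat were checked too. Of the oil gland markers, Awat2 and Far2 had 1 and 7 counts over all 6 libraries. Dgat2 and Plin2, which many cell types express, were at 42.1 ± 10.6 and 42.6 ± 3.59 CPM in control. Dgat2 differed by 0.09 ± 0.18, and Plin2 by -0.65 ± 0.23 without overlap. Of the fat cell markers, Adipoq and Plin1 had 2 counts and 1 count. Cfd differed by -0.63 ± 0.30 with overlap and Fabp4 by -1.44 ± 0.42 without overlap, from 2.87 ± 1.38 CPM in control. DESeq2 called Fabp4 as lower, as it did 4.64% of the genes to which it gave an adjusted p. Which cells the Fabp4 RNA came from was not tested. The part of these cells in the enzyme values was not tested.

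**Figure D4:**
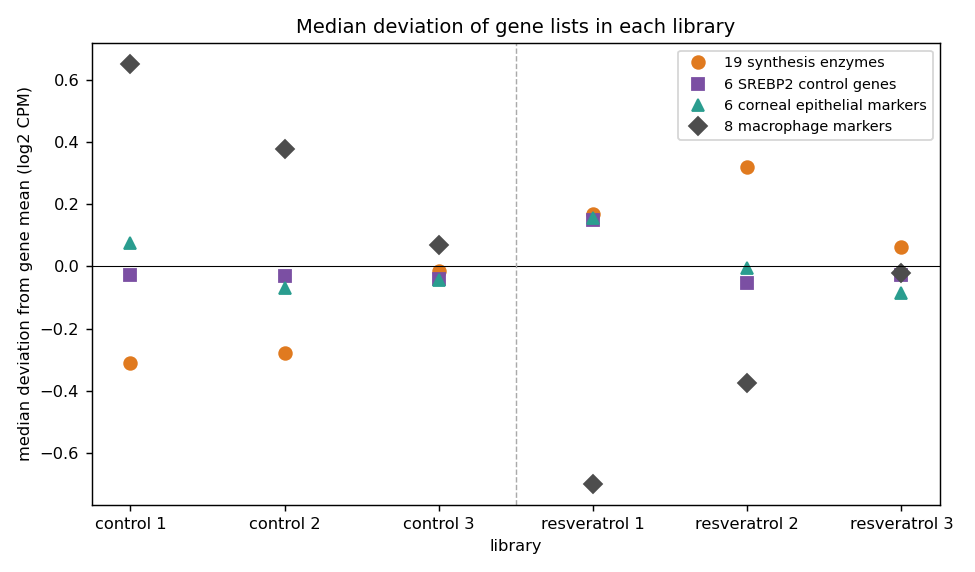
Median deviation from each gene's mean log2 CPM in each library (x axis) for the 19 enzymes, the 6 SREBP2 control genes, 6 corneal epithelial markers and 8 macrophage markers. Enzymes run from -0.31 in control 1 to 0.32 in resveratrol 2, macrophage markers from 0.65 in control 1 to -0.70 in resveratrol 1, and the other lists stay between -0.09 and 0.15.

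Of 40 further genes of sterol and isoprenoid metabolism, 39 were tested, 20 with a higher and 19 with a lower mean, and 0 passed edgeR. In the prenylation and dolichol branch 7 of 8 had a higher mean (median 0.19), with Nus1, a dolichol synthesis subunit, at 85.2 ± 8.58 and 87.7 ± 0.890 CPM and Fnta, a farnesyltransferase subunit, differing by -0.11 ± 0.090. The 4 genes listed as electron donors had a median of 0.01. Of them Por, the reductase that serves Cyp51 and Sqle, differed by 0.02 ± 0.077 and Cyb5b by 0.28 ± 0.11. The 9 genes listed as SREBP regulators, Srebf1 among them, had a median of 0.15, with Rnf145 at 0.04 ± 0.10.

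Uptake, storage and transport genes had a lower mean in 11 of 14 (median -0.16). Lrp1, a lipoprotein receptor, was at 366, 358 and 237 CPM in control libraries, against 420, 200.1 and 241 CPM under resveratrol, with wide overlap, and Osbp, a sterol transfer protein, differed by 0.14 ± 0.078. All 4 tested genes that make oxysterols had a lower mean, with Cyp27a1 at -0.62 ± 0.21 and Cyp39a1 at -0.04 ± 0.24. DESeq2 called 3 of the 39 as higher, Srebf1 (0.69 ± 0.16), Erlin1 (0.38 ± 0.087) and Mylip (0.49 ± 0.15), and 1 as lower, Gramd1a (-0.59 ± 0.16), against 2.23% and 4.64% of all genes. These 4 genes were named after their values were seen. Srebf1 encodes SREBP1, which drives fatty acid synthesis, Erlin1 belongs to the complex that degrades sterol-regulated proteins, and Mylip is an E3 ligase for lipoprotein receptors.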

How the data were processed

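Corneal RNA of 6 libraries was sequenced from both fragment ends, per the labels' protocols. For each gene the authors deposited a raw count in 1 table and an FPKM value in a file per library, per the file headers. mRatBN7.2, R 3.2.0 and DESeq2 are listed in the submitters' processing notes without their purpose. Aligner, counting tool, annotation and strand setting: not given in the sources used here. One tab is missing from the header of the count table. The count columns were therefore checked against FPKM: their log2 ratio had an SD of at most 3.54e-10 within a library and of 0.271 or more between libraries. Totals were 35068936 to 37460756 counts, and the 28 genes had 1929 to 78648 counts each over all libraries. No 2 libraries agreed within counting noise: pairs gave a chi-square of 31.4 to 92.7 times its degrees of freedom.

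After filterByExpr, 14213 genes were scaled by TMM and tested in edgeR 4.0.16 under R 4.3.3 (glmQLFit and glmQLFTest on group alone). Benjamini-Hochberg adjustment ran over all of them, at a threshold of 0.05. The standard errors are moderated values of limma 3.58.1, taken from log2 CPM after adding a prior count of 2. DESeq2 1.42.0, an alternative, left 3105 genes without an adjusted p and gave one to 14666. Scripts were tested on simulated data. Promoter windows (RefSeq, GRCr8) were searched for motif letters on both strands. The files use another build, and no coordinates were carried over.

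The genes, lists and marker sets were chosen with earlier results of these data known. By rule, values per library were given for the 3 largest and 3 smallest fold changes, Srebf2, Insig1 and the most and least abundant gene. From each list of other pathway genes the 2 with the highest mean CPM were to be named. Some genes of the pathway are not reported here. Alternatives changed the scaling, the filter, the tool (DESeq2, limma voom, limma on log2 FPKM with a pseudocount of 1 or 0.1), the threshold (0.01 or 0.1), the libraries used and the covariates (replicate number or Sep and Oct ending).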

Additional observations from a re-analysis of the deposited data

How the results depend on the processing

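All 19 enzymes kept a higher mean under other scaling, other filters, DESeq2, limma voom, FPKM and the covariate fits, and 18 of 19 did when control 1 or resveratrol 2 was left out, or when Oct libraries alone were used. The median log2 fold change of the enzymes ran from 0.30 to 0.53 when each library was left out, the highest without control 3. DESeq2 called 1007 genes and 8 of the 28 members where edgeR called 0 of each, and the cause was not tested. With each library left out edgeR called 0 to 21 genes, 21 without control 3 and 1 without resveratrol 2, and 0 members each time. Enzymes without overlap numbered 13 to 17 with each library left out, beside 14.8% to 18.9% of all genes, and 16 in the Oct libraries, beside 24.8%, settings added after the data were seen. The fit with the replicate number as a block called 0 genes and gave a median of 0.41. Over all genes same-numbered libraries did not deviate together (correlations -0.004, -0.012 and -0.023), so the numbers were not treated as pairs. Over the 19 enzymes alone these correlations were 0.53, -0.03 and 0.68 for numbers 1, 2 and 3. Libraries of unlike number gave -0.70 to 0.23. These values compare the pattern from enzyme to enzyme and leave out any shift of all enzymes together. As a set the enzymes were highest among controls in control 3 (median deviation -0.02) and lowest among resveratrol libraries in resveratrol 3 (0.06). Of 448 member values recomputed, 13 changed sign, 7 of them for Scap and the others for Ggps1, Insig1 and Npc1, all to values between -0.14 and 0.05. With 3 libraries per group the precision is limited. The parts of depth and of the spread between libraries in each member's standard error were not separated.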
